A study of Arabidopsis thaliana with 10 samples.

Results

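PME41, AT1G67750 and AT5G62360 encode proteins that act on pectin, or belong to a family that does. PME41 (AT4G02330, also written ATPMEPCRB, probe set 255524_at) is a pectin methylesterase. AT5G62360 (probe set 247478_at) belongs to the invertase and pectin methylesterase inhibitor family, and AT1G67750 (probe set 245196_at) is a pectate lyase. They are 3 of the 13286 Arabidopsis thaliana genes that had a probe set naming a single gene, and each was read by 1 probe set. The 3 genes were chosen by name with the expression results of these same arrays known, chiefly their differences between groups at 2 d. Their values at 2 d, and their change between the control groups, are therefore a description and carry no test.

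The study measured whole-plant RNA on 10 Affymetrix ATH1 arrays, a 1-colour chip with 1 sample per array. The 5 groups of 2 arrays each were boron-deficient plants after 2 d, calcium-deficient plants after 2 d, control plants at 2 d, boron-deficient plants after 4 d and control plants at 4 d. Plants sampled at 2 d were 19 days old and those sampled at 4 d were 21 days old. All were raised on perlite, and their solution held 25 µM of boron and 3 mM of calcium; controls stayed on this solution, and the others were watered without boron or without calcium. The start of deficiency is given as 17 days in one label and as 19 days in the design text, and the plant ages fit only the first. The calcium-free solution was also rebalanced for nitrate with magnesium and potassium salts, so calcium-deficient plants differed from control plants in those salts too. There was no calcium-deficient group at 4 d. Replicates are labelled as biological, and the labels do not say how many plants each held.

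Pectin is the gel-forming polysaccharide of the plant cell wall, and much of it is homogalacturonan, a chain that is secreted with most of its acid groups methyl-esterified. Pectin methylesterases remove the methyl groups, which exposes charges that calcium can bridge between chains; inhibitor proteins of the invertase and pectin methylesterase inhibitor family block such enzymes or block invertases. Pectate lyases cut the de-esterified chain, preferably with calcium bound. Boron joins pectin at another site, as a borate bridge between chains of rhamnogalacturonan II. Both nutrients thus hold the same wall polymer together.

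Signals are given after quantile normalization, because the deposited arrays had median signals of 115 to 121 at 2 d and of 232 to 243 at 4 d. Differences are on the log2(signal + 16) scale, on which 1 is a doubling for bright probe sets and changes of dim ones are understated. All 3 genes passed the filter on low signals, as did 17059 of the 22746 probe sets. Boron-deficient replicate 2 at 2 d was about as close to the calcium-deficient arrays as to its own replicate. Its rank correlation over probe sets was 0.965 with its own replicate and 0.966 and 0.963 with the calcium-deficient arrays. With the control arrays at 2 d it was 0.946 and 0.921. For the 3 genes, and for the pectin genes called without boron, values or calls without that array are given too.

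PME41 was higher in both deficiencies at 2 d. Its signal was 858 and 752 in boron-deficient plants, 907 and 733 in calcium-deficient plants, and 564 and 366 in control plants. Every deficient array lay above both control arrays of that day, and the ranges of the deficiencies overlapped. The log2 difference from control was 0.80 (SE 0.25, 1.74-fold) without boron and 0.82 (SE 0.25, 1.77-fold) without calcium. Between boron-deficient and calcium-deficient plants it was -0.02 (SE 0.25). At 4 d the boron-deficient arrays read 599 and 627, against 513 and 811 in control plants, whose spread took in both boron-deficient values. From the highest mean to the lowest, PME41 was at 820 ± 124 in calcium-deficient plants at 2 d, 805 ± 75.4 in boron-deficient plants at 2 d, 662 ± 211 in control plants at 4 d, 613 ± 20.0 in boron-deficient plants at 4 d and 465 ± 140 in control plants at 2 d (SD, n = 2 each). Of the neighbours in this order, the boron-deficient plants at 4 d and the control plants at 2 d were the only pair whose arrays did not overlap.

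AT5G62360, the inhibitor family gene, was low without calcium, while without boron its range overlapped that of control plants. At 2 d its signal was 2820 and 1519 in boron-deficient plants, 359 and 486 in calcium-deficient plants, and 2693 and 1261 in control plants. Boron-deficient and control arrays covered nearly the same range, with a replicate ratio of 1.86 in the boron-deficient group and of 2.14 in the control group, and both calcium-deficient arrays were below all of them. The log2 difference from control was -2.10 (SE 0.35, 4.29-fold lower) without calcium, where 20 of the 17059 probe sets had a more negative value, and 0.17 (SE 0.35) without boron. Boron-deficient plants exceeded calcium-deficient plants by 2.27 (SE 0.35, 4.81-fold), and 0 of the 17059 probe sets had a larger positive value in that contrast.

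Boron-deficient replicate 2 at 2 d, which ranked probe sets much as the calcium-deficient arrays did, was about as high for AT5G62360 as control replicate 2. Without that array, the log2 difference of AT5G62360 was 0.60 between boron-deficient and control plants and 2.70 between boron-deficient and calcium-deficient plants. With any single array left out, its boron value at 2 d ran from -0.38 to 0.70, so its sign was not settled. The corresponding difference from control without that array was 0.90 for PME41 and 1.85 for AT1G67750.

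AT5G62360 was low in every group at 4 d. It read 68.2 and 66.0 in boron-deficient plants of 4 d and 68.1 and 68.2 in control plants of 4 d, below every array of 2 d. Control plants at 4 d differed from control plants at 2 d by a log2 value of -4.47 (SE 0.35, 22.1-fold lower), and 6 probe sets had a more negative value. Other settings, or leaving out 1 array, gave -5.01 to -3.70. The mean signal was 2170 ± 920 in boron-deficient and 1977 ± 1012 in control plants at 2 d, 422 ± 89.5 in calcium-deficient plants, 68.1 ± 0.0660 in control plants at 4 d and 67.1 ± 1.50 in boron-deficient plants at 4 d (SD, n = 2 each). In that order, the arrays overlapped within the first pair and the last pair only. The position of AT5G62360 among all probe sets of an array does not depend on the scaling: it lay above 94% to 97% of them in boron-deficient and 92% to 97% in control plants at 2 d, above 70% to 77% in calcium-deficient plants, and above 26% to 27% at 4 d. Array medians before normalization were alike within a day and differed between days, so age and array processing cannot be told apart for changes between days.

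AT1G67750, the pectate lyase, was higher in both deficiencies. At 2 d its signal was 492 and 523 in boron-deficient plants, 414 and 349 in calcium-deficient plants, and 144.5 and 108.5 in control plants. The 3 groups did not overlap, with boron-deficient plants highest. The log2 difference from control was 1.89 (SE 0.17, 3.70-fold) without boron, where 23 of the 17059 probe sets had a larger value, and 1.49 (SE 0.17, 2.80-fold) without calcium, where 192 did. Boron-deficient plants exceeded calcium-deficient plants by 0.40 (SE 0.17).

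At 4 d AT1G67750 read 522 and 399.6 in boron-deficient plants and 422 and 379 in control plants, so the control group of that day was near the deficient groups of 2 d. Its mean was 507 ± 21.8 in boron-deficient plants at 2 d, 461 ± 86.4 in boron-deficient plants at 4 d, 400.4 ± 30.7 in control plants at 4 d, 382 ± 45.7 in calcium-deficient plants and 127 ± 25.4 in control plants at 2 d (SD, n = 2 each). The last step was the only one in this order without overlap. Control plants at 4 d differed from those at 2 d by 1.56 (SE 0.17) for AT1G67750 and by 0.49 (SE 0.25) for PME41. The boron difference at 4 d minus that at 2 d was -1.70 (SE 0.24) for AT1G67750, -0.87 (SE 0.35) for PME41 and -0.18 (SE 0.50) for AT5G62360. In that contrast 0.229% of all probe sets passed an adjusted p of 0.05, and nothing is read from this for the 3 genes, since their boron values at 2 d were in view.

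**Figure D1:**
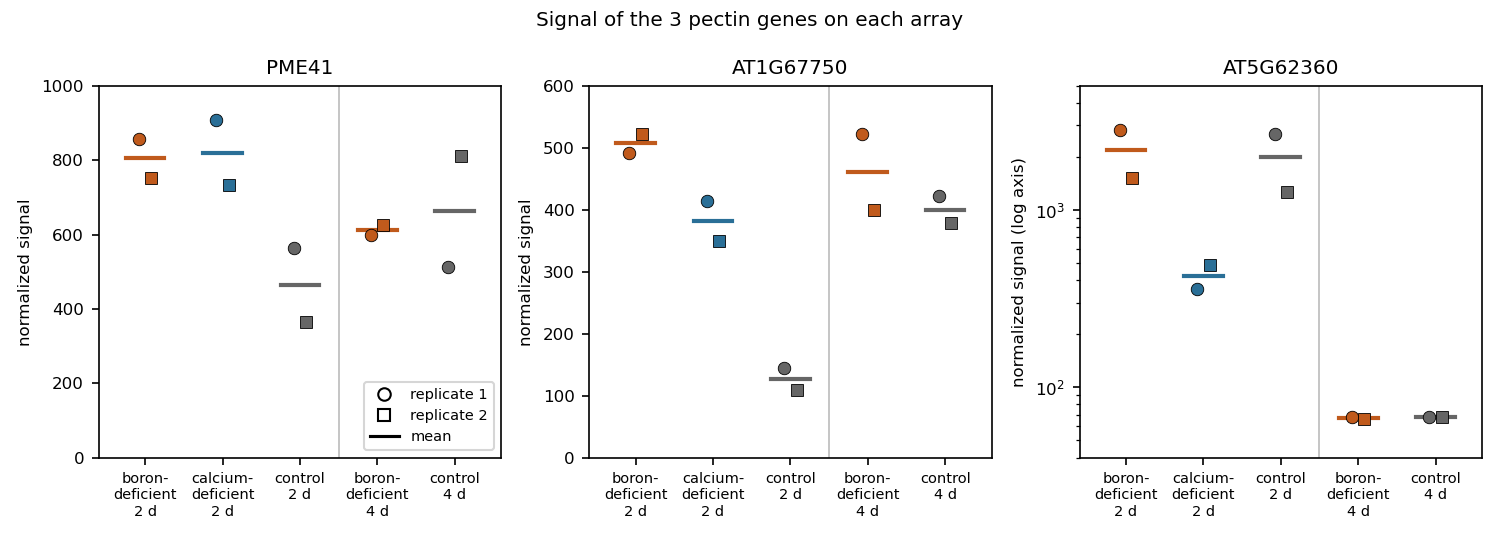
Normalized signal (vertical axis, own scale in each panel, log axis for AT5G62360) of PME41, AT1G67750 and AT5G62360 on each of the 10 arrays, by group; circles and squares are replicates 1 and 2 and bars are group means. AT1G67750 was at 144.5 and 108.5 in control plants at 2 d and at 349 or more on all other arrays, and AT5G62360 was at 68.2 or less on all 4 arrays of 4 d.

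**Figure D2:**
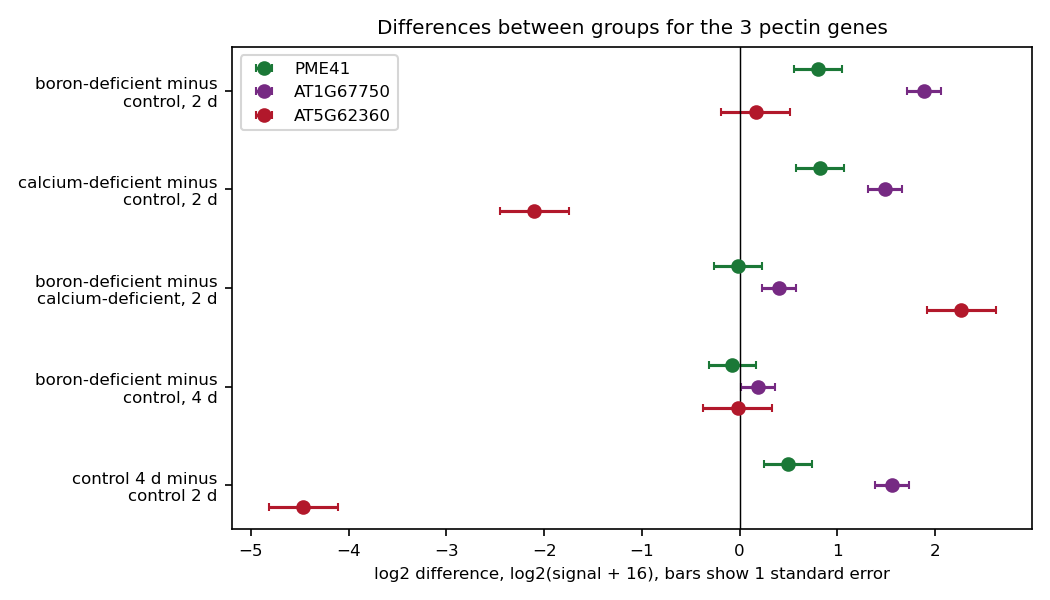
Log2 differences between groups (horizontal axis, log2(signal + 16) scale) for the 3 genes; points are the fitted differences and bars show 1 standard error. AT1G67750 was at 1.89 and 1.49 without boron and without calcium at 2 d, AT5G62360 was at 0.17 and -2.10, and all 3 were between -0.07 and 0.18 for boron at 4 d.

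Plants sampled at 4 d were other plants, and boron-deficient ones were tested there against controls with limma over all 17059 probe sets. The question was whether the 3 genes differed after the longer deficiency. None passed: the log2 difference was -0.07 for PME41 (95% confidence interval -0.62 to 0.48, adjusted p = 0.9996), 0.18 for AT1G67750 (-0.20 to 0.57, adjusted p = 0.9996) and -0.02 for AT5G62360 (-0.81 to 0.77, adjusted p = 0.9998). Over all probe sets 0.00586% passed, 1 probe set, and 725 had an unadjusted p under 0.05. A p that misses the threshold does not show equal levels. For AT5G62360 the test is limited further, because its signal was only 66.0 to 68.2 on the arrays of 4 d. It lay there above 26% to 27% of the probe sets of an array, where a fall could hardly show. Whether the longer deficiency lowered it is therefore not decided. Its interval rests on a spread shared by all 5 groups, and replicates differed by ratios of 1.86 and 2.14 in boron-deficient and control plants at 2 d.

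Tissue markers moved with some of these values. Of 6 listed root markers, 3 had a probe set naming them alone. Their summed signal was 2508 to 3334 in boron-deficient plants, 3089 to 4137 in calcium-deficient plants and 1615 to 1889 in control plants at 2 d. At 4 d it was 4136 to 4301 in boron-deficient and 4424 to 4625 in control plants. The groups in which AT1G67750 was high thus also had a larger root marker sum than control plants at 2 d. The sum did not stand for every marker. Against control plants at 2 d, single markers had log2 differences of 0.43 to 0.73 without boron and 0.14 to 1.09 without calcium. In control plants at 4 d they ran from -0.08 to 1.46, with a median of 0.01. The sum over 4 leaf photosynthesis markers of 11 listed was 35776 to 38180 in boron-deficient, 27820 to 30709 in calcium-deficient and 36818 to 40355 in control plants at 2 d, and 45288 to 45540 in boron-deficient and 43161 to 44208 in control plants at 4 d. No marker with a probe set naming it alone was at 0. None of the 7 flower and 9 cell division markers had one, so they were not read. On the array, 8730 of the 22746 probe sets had no listed gene name. The part of tissue make-up in the differences was not tested, and in whole plants fewer cells of a type and less RNA per cell cannot be told apart.

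The inhibitor family gene next to AT5G62360 on chromosome 5, AT5G62350, had part of the same pattern. Its signal was 6054 and 4787 in boron-deficient, 3319 and 3622 in calcium-deficient and 4642 and 4055 in control plants at 2 d. At 4 d it was 1182 and 989 in boron-deficient and 1044 and 1087 in control plants. Boron-deficient plants exceeded calcium-deficient plants by 0.63 (limma adjusted p = 0.0307), in which direction 5.73% of all probe sets passed and 4.72% in the other. Neither deficiency differed from control past the threshold, at 0.31 without boron (adjusted p = 0.226) and -0.32 without calcium (adjusted p = 0.156). From 2 d to 4 d AT5G62350 fell by 2.01 in control plants (adjusted p = 2.04e-05), in which direction 17.0% of probe sets passed and 18.9% in the other. AT5G62340, 2 genes from AT5G62360, went the other way without calcium, at 1.09 (limma adjusted p = 0.00999). In that direction 11.8% of all probe sets passed. It had 0.39 without boron (adjusted p = 0.296), and its control difference from 2 d to 4 d was 0.20 (adjusted p = 0.527). How far the probe sets of AT5G62360 and AT5G62350 also bind transcripts of the other gene was not tested.

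**Figure D3:**
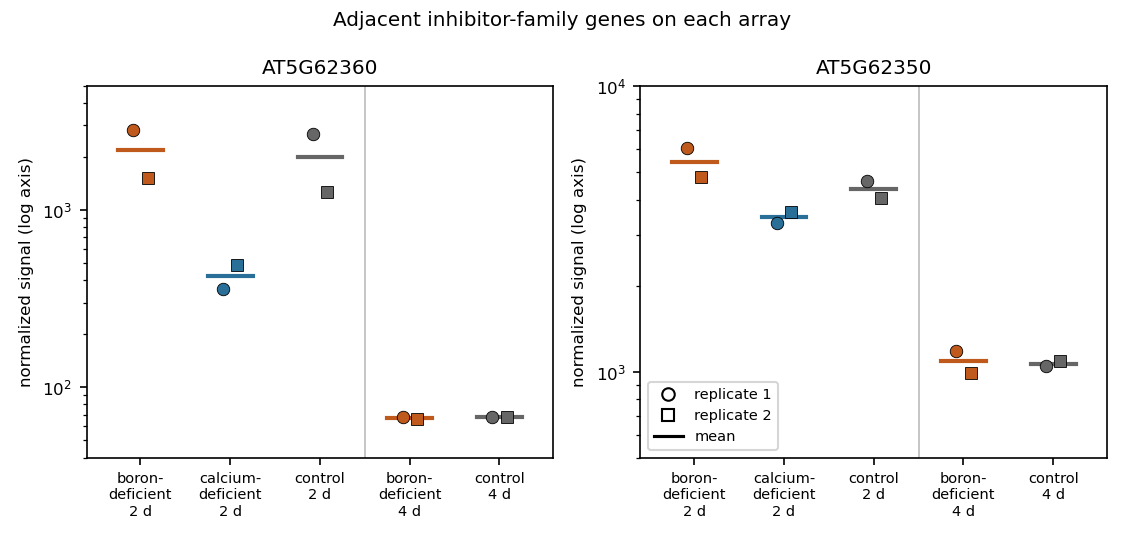
Normalized signal (log axis, each panel with its own range) of the adjacent inhibitor family genes AT5G62360 and AT5G62350 on each array; circles and squares are replicates 1 and 2 and bars are group means. For both genes the calcium-deficient arrays were the lowest of 2 d, and the arrays of 4 d were lower still.

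Around PME41 on chromosome 4, the pectin methylesterase gene AT4G02300 stood 3 genes away. It had 102 and 102 in boron-deficient, 120 and 104 in calcium-deficient and 78 and 67 in control plants at 2 d. Its log2 difference was 0.53 without calcium (limma adjusted p = 0.0256) and 0.41 without boron (adjusted p = 0.0990). The adjacent gene AT4G02320, also a pectin methylesterase, did not pass the filter on low signals. The nearest measured neighbours of AT1G67750 did not differ from control past the threshold at 2 d. PSBY, a photosystem II protein, had 0.14 without boron and -0.28 without calcium, and AT1G67760 had 0.33 and 0.34. Boron-deficient plants exceeded calcium-deficient plants by 0.42 for PSBY (limma adjusted p = 0.0463), where 5.73% of all probe sets passed as higher. PSBY was also higher in control plants at 4 d than at 2 d, by 0.35 (adjusted p = 0.0383), where 18.9% passed as higher.

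The 3 genes did not share 1 pattern within a day. After the mean of each sampling day was subtracted, Pearson's r over the 10 arrays was 0.80 between PME41 and AT1G67750, -0.24 between PME41 and AT5G62360 and -0.21 between AT1G67750 and AT5G62360. These values describe 10 points from 5 groups that share arrays and normalization. Among 1648 genes whose centred values spanned at least 1, those most like PME41 were AT3G19400, AT3G16780, AT3G18760, AT1G52770 and AT1G03020, with r of 0.933 to 0.958. Those most like AT1G67750 were AT5G54970, AT1G21440, AT5G07030, AT1G29980 and ATLP-1, with r of 0.982 to 0.984. For AT5G62360 they were AT3G23880, AT5G47190, AT4G21870, AT5G03120 and AT1G78450, with r of 0.957 to 0.981. Many more genes were nearly as close: r was over 0.9 for 21 genes with PME41, 119 with AT1G67750 and 69 with AT5G62360.

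Pectin genes other than these 3 were counted to see whether their classes moved alike. Of 260 listed genes in 9 classes, 147 had a probe set naming them alone and 84 besides PME41, AT1G67750 and AT5G62360 passed the filter. Without boron at 2 d, 11 of the 84 rose and 2 fell in limma's test at an adjusted p of 0.05. These are 13.1% and 2.38%, against 5.80% and 2.72% of all probe sets, and the median log2 difference was 0.16, against -0.02 over all probe sets. The classes were those of general gene family knowledge, and the lists were drawn up with results of these arrays known, so the counts are no independent evidence of a direction.

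Pectate lyases made up 4 of those 11. Of 14 tested besides AT1G67750, 4 rose without boron and none fell, with a class median of 0.43. Over all probe sets 5.80% rose and 2.72% fell without boron. AT4G24780 had 715 and 839 in boron-deficient, 559 and 386 in calcium-deficient and 315 and 302 in control plants, and differed from control by 1.28 without boron (adjusted p = 0.00501). AT3G53190 had 643 and 611 in boron-deficient, 373 and 352 in calcium-deficient and 272 and 283 in control plants, a boron difference of 1.13 (adjusted p = 0.00546). In both genes the boron-deficient arrays were above all others of that day.

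AT1G04680 differed by 1.05 (adjusted p = 0.0102), with 770 and 761 in boron-deficient, 578 and 472 in calcium-deficient and 422 and 308 in control plants. AT5G63180 differed by 0.85 (adjusted p = 0.0136), with 826 and 701 in boron-deficient, 507 and 486 in calcium-deficient and 444 and 390 in control plants. Without calcium these 4 genes had log2 values of 0.57, 0.36, 0.52 and 0.25 in the same order, none past the threshold. The direct comparison of boron-deficient with calcium-deficient plants passed for AT4G24780 (0.72), AT3G53190 (0.76) and AT5G63180 (0.60). All 4 kept their boron call whichever single array was left out, and lost it when the spread was estimated from the compared groups alone or with array weights.

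In control plants 7 of the 14 pectate lyases were past the threshold as higher at 4 d than at 2 d and 2 as lower, where 18.9% and 17.0% of all probe sets were. The 4 that rose without boron were among the 7, by 1.85 for AT4G24780, 0.78 for AT3G53190, 1.15 for AT1G04680 and 1.12 for AT5G63180, as AT1G67750 was higher there by 1.56. The boron difference at 2 d and this difference share the control arrays of 2 d, so these are not separate observations. The calcium difference shares them too. Without calcium at 2 d, 1 of the 14 pectate lyases rose, AT4G13210 by 0.38 (adjusted p = 0.0425), and 1 fell, AT5G04310 by 0.72 (adjusted p = 0.0269). Over all probe sets 11.8% rose and 9.93% fell without calcium.

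**Figure D4:**
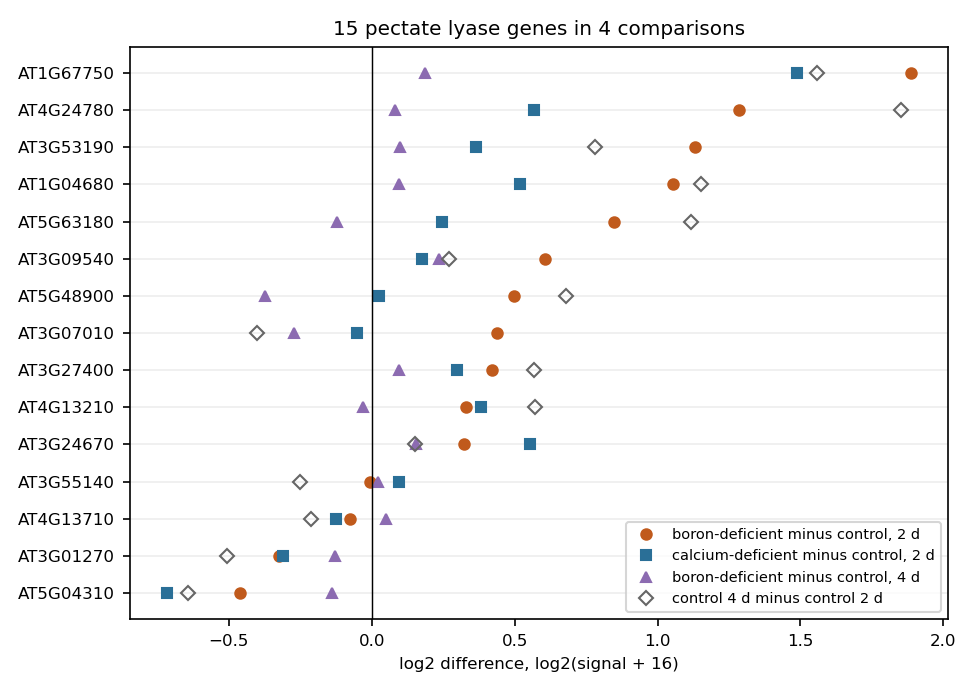
Log2 differences (horizontal axis, log2(signal + 16) scale) of AT1G67750 and the 14 other pectate lyase genes that passed the filter, 1 gene per line, in 4 comparisons marked by symbol. AT1G67750 was at 1.89 for boron and 1.49 for calcium at 2 d, AT4G24780 at 1.28 and 0.57, and the boron values of 4 d lay near 0 (0.18 for AT1G67750).

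Among 18 other pectin methylesterases, 1 rose and 1 fell without boron, where 5.80% and 2.72% of all probe sets did. AT3G49220 rose by 0.98 (adjusted p = 0.0193), with 1164 and 1267 in boron-deficient and 766 and 480 in control plants. AT2G26450 fell by 0.54 (adjusted p = 0.0245), with 56.6 and 56.9 in boron-deficient and 92.7 and 86.4 in control plants. Without calcium 3 rose and 1 fell, where 11.8% and 9.93% of all probe sets did, so these few calls are not read as a result about the class. PMEPCRF (AT5G53370) had 2038 and 1637 in calcium-deficient and 857 and 651 in control plants, a rise of 1.27 (adjusted p = 0.00622). AT2G47550 rose by 1.10 (adjusted p = 0.0432) and AT4G02300 by 0.53, and AT2G26450 fell by 0.59 (adjusted p = 0.00759). PMEPCRF and AT2G47550 were also high on boron-deficient replicate 2 of 2 d, at 1368 and 192, against 828 and 70.2 on replicate 1.

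Of 15 inhibitor family genes besides AT5G62360, 3 rose without boron and none fell, where 5.80% and 2.72% of all probe sets did. AT1G23205 rose by 0.87 (adjusted p = 0.0403), with 323 and 342 in boron-deficient, 178 and 161 in calcium-deficient and 194 and 156 in control plants. AT2G01610 rose by 0.60 (adjusted p = 0.0312) and AT3G62820 by 0.47 (adjusted p = 0.0460). Without calcium 2 rose, AT3G47380 by 0.98 (adjusted p = 0.0193) and AT2G01610 by 0.53 (adjusted p = 0.0255), and 2 fell, AT1G10770 by 0.86 (adjusted p = 0.0109) and AT5G20740 by 0.71 (adjusted p = 0.0145). The shares over all probe sets without calcium were 11.8% higher and 9.93% lower. The calcium difference of AT5G62360, at -2.10, was more negative than any of these, but that gene was chosen with this value known, so its place is no finding about the family.

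Of 20 polygalacturonases, which cut homogalacturonan by hydrolysis, or their beta-subunit proteins, 3 rose and none fell without boron. These were AT1G60590 by 1.14 (adjusted p = 0.0192), AT3G62110 by 0.71 (adjusted p = 0.0210) and AT1G10640 by 0.86 (adjusted p = 0.0428). Over all probe sets 5.80% rose and 2.72% fell without boron. AT1G60590 had 161 and 166 in boron-deficient, 177 and 115 in calcium-deficient and 79.5 and 53.7 in control plants. Without calcium AT1G60590 rose by 0.96 (adjusted p = 0.0172), AT1G10640 by 0.88 (adjusted p = 0.0210) and AT2G43890 by 0.51 (adjusted p = 0.0147), and AT1G02460 fell by 0.41 (adjusted p = 0.0418). Of all probe sets, 11.8% rose and 9.93% fell without calcium.

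The remaining classes held few calls. Of 6 pectin acetylesterases, which remove acetyl groups, AT3G09405 fell by 0.57 without boron (adjusted p = 0.0428), where 2.72% of all probe sets fell. None of the 2 rhamnogalacturonate lyases tested, of 7 listed, passed in either deficiency at 2 d. None of the 4 pectin synthesis genes tested did, but 43 were listed, so most of that class was not read. Among these 4, AT5G15740 had the lowest boron p, at 1.06 (adjusted p = 0.0554). Of 5 wall sensing receptors and subtilases, the protease gene SBT3.5 rose by 1.26 without calcium (adjusted p = 0.0190), with 747 and 775 in calcium-deficient and 298 and 319 in control plants. Boron-deficient plants had 151 and 372 for SBT3.5. Of all probe sets, 11.8% rose without calcium. The polygalacturonase-inhibiting proteins PGIP1 and PGIP2 and the receptor RLP42 had no probe set naming them alone, so none was tested.

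Without calcium, 10 of the 84 pectin genes rose and 5 fell in all. These are 11.9% and 5.95%, against 11.8% and 9.93% of all probe sets, so the share that rose was near the background, and the median was 0.06 against -0.02. With the values as deposited 7 rose and 7 fell, and with median centring 7 rose and 8 fell. Over all probe sets the calcium split of 2012 higher and 1694 lower became 1681 and 1932 as deposited and 1688 and 1997 with median centring. For boron at 2 d, the split of 990 higher and 464 lower became 793 and 562 with median centring.

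At 4 d none of the 84 pectin genes passed for boron, with a median of 0.01 against -0.01 over all probe sets. The lowest p values of the classes belonged to genes such as AT1G23205, at 0.98 (adjusted p = 0.676), and AT1G60590, at 0.82 (adjusted p = 0.982). AT1G23205 had 797 and 480 in boron-deficient and 339 and 275 in control plants at 4 d.

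The counts without boron at 2 d rested in part on replicate 2. Without boron-deficient replicate 2, 6 pectin genes rose and 1 fell, and 5 of the 13 calls were among them, AT3G62110 and the 4 pectate lyases. The adjusted p of AT3G62110 was then 0.0476, and that of the 4 pectate lyases was 0.0222 to 0.0400. The other 8 calls were lost without that array, with an adjusted p of 0.0746 for AT3G49220, 0.0784 for AT2G26450, 0.131 for AT2G01610, 0.121 for AT1G23205, 0.142 for AT3G62820, 0.0698 for AT1G60590, 0.153 for AT1G10640 and 0.139 for AT3G09405. They kept their direction. Of the 15 calcium calls 14 remained without that array, all but AT4G13210 (adjusted p = 0.0510), and none remained under every array left out. The boron count of 13 also became 21 without control replicate 1 of 2 d and 7 without either control replicate of 4 d, which enter through the shared spread. The calcium count of 15 became 1 without calcium-deficient replicate 1 and 4 without calcium-deficient replicate 2.

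**Figure D5:**
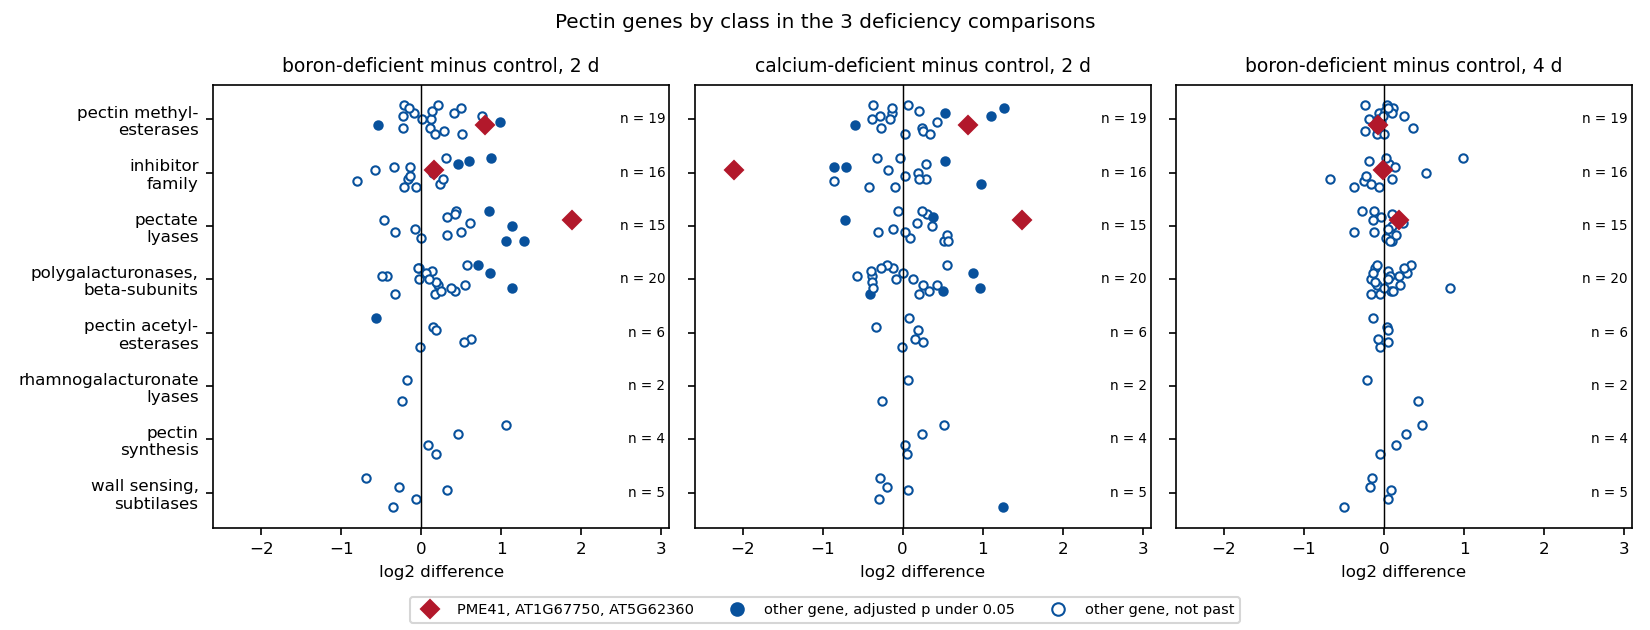
Log2 differences from control (horizontal axis, log2(signal + 16) scale) of all 84 tested pectin genes and the 3 described genes, by class, for boron deficiency at 2 d, calcium deficiency at 2 d and boron deficiency at 4 d; filled circles passed an adjusted p of 0.05 and diamonds are PME41, AT1G67750 and AT5G62360. Without boron 11 of the 84 rose and 2 fell at 2 d, without calcium 10 rose and 5 fell, and none passed at 4 d.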

How the data were processed

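The deposited table holds 1 intensity per probe set and array, linear signals made by the authors with GCOS 1.4, per the submitters' processing notes; how they were scaled is not stated there. Array medians differed by day by over 0.5 on the log2 scale, so signals were quantile-normalized, 16 was added and log2 taken. A filter at the 25th percentile of mean log2 signal removed 5687 probe sets and kept 17059. Differences were fitted with limma 3.58.1 in R 4.3.3 (1 mean per group, 10 arrays, 5 residual degrees of freedom, trended empirical Bayes, Benjamini-Hochberg adjustment over all 17059, threshold 0.05). The fit was tested on simulated data. Of the table's 22746 probe sets, 13513 named a single gene, 503 several and 8730 none; 13436 of the single names matched a RefSeq locus of TAIR10.1, used for names and neighbours only. No probe intensity files or sequences were used here. Precision is limited by having 2 arrays in a group, and p-values measure the spread between these arrays, which share no known pairing.

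The 3 genes and all gene lists were chosen with earlier results of these data known. A list gene was read by its single-gene probe set of highest mean signal. Text named, per class and deficiency comparison, up to 4 genes per direction past the threshold, lowest adjusted p first, or else the lowest p, and the 5 genes whose day-centred values correlated best with each of the 3. Genes described as polygalacturonase inhibitors or receptors in RefSeq's text were kept as a class of their own, a departure from the written rule. Neighbouring genes, AT4G02320, AT5G62350 and the classes' other signals were described after their values were seen. Alternatives changed the scaling, pseudocount, filter, spread estimate, block and arrays.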

Additional observations from a re-analysis of the deposited data

Results flagged for a closer look

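AT1G67750 stands here because its boron difference was not alike on both days. The boron difference at 4 d minus that at 2 d was -1.70 (SE 0.24), with 0.18 at 4 d and 1.89 at 2 d. The values at 2 d helped choose the gene, so this is a description with no test. It ranged from -1.89 to -1.51 with 1 array left out, and was -1.67 without boron-deficient replicate 2 of 2 d. For that reason no call is read from the fit over all probe sets. Its limma adjusted p there was not under 0.05 in 6 of 10 cases with an array left out and in 3 of 10 other settings. Groups of 2 arrays are too small to look for single outlying arrays by a gap rule.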

How the results depend on the processing

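Counts are probe sets past an adjusted p of 0.05, and the causes of the changes below were not tested. For boron against control at 2 d, 1454 passed; this was 801 with a replicate block within day, 456 with arrays of the same day only, 44 with only the groups compared, 206 with array weights, and 736 to 2783 with single arrays left out. For calcium the count was 3706, against 1905 with the same day only, 2276 with only the groups compared, and 1012 to 4212 with an array left out. Boron against calcium gave 1784, and 1117, 442 and 627 under the block within day, the same day only and the groups compared only, with 111 to 2500 when an array was left out. At 4 d the count of 1 became 2 with median centring, 3 with array weights and 0 with a pseudocount of 1, either replicate block, the same day only or only the groups compared, and 0 to 1 with an array left out. The difference of the boron responses had 39, and 15 with the replicate block, 7 with the block within day, 10 with only the groups compared, 11 with array weights and 0 to 429 with an array left out. Control plants at 4 d against 2 d had 6118, and 14775 as deposited, where the median of all probe sets was 0.89, 3569 with the block within day, and 3422 to 6508 with an array left out. Deposited values called 72 pectin genes higher and 2 lower there, against 24 and 14 after normalization.

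The 13 pectin calls for boron at 2 d became 8 with the block within day, 5 with the same day only, 0 with only the groups compared and 0 with array weights, and 7 to 21 with an array left out. The 15 for calcium became 6, 8 and 9 with the same day only, only the groups compared and array weights, and 1 to 17 with an array left out, the lowest without calcium-deficient replicate 1. The 4 other pectate lyases higher without boron became 0 with only the groups compared or array weights. The 1 higher without calcium became 2 with a pseudocount of 1 or no intensity trend, 0 as deposited, with the replicate block, the same day only, only the groups compared or array weights, and 0 to 2 with an array left out.

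PME41 between boron-deficient and calcium-deficient plants turned to 0.0027 as deposited and ranged from -0.17 to 0.13 with an array left out. Leaving out an array also turned the sign of other differences near 0: at 4 d for boron, PME41 ranged from -0.40 to 0.25, AT1G67750 from -0.00046 to 0.37 and AT5G62360 from -0.036 to 0.00077. AT5G62360 without boron at 2 d ranged from -0.38 to 0.70 and its boron difference of the days from -0.72 to 0.36. AT5G15740 without calcium ranged from -0.012 to 1.07. Of all single-gene values under other settings, 1035 kept direction and side of the threshold, 201 lost the call, 7 gained it and 11 changed sign. Replicate differences of groups of the same day correlated at -0.21, -0.07, 0.03 and 0.10, so the numbers were not taken to pair samples. The 5 residual degrees of freedom limit all calls.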

Other observations

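The endoglucanase-family gene GH9B13 (AT4G02290), which lies 4 genes from PME41, was chosen after its values were seen. It rose by 1.73 without boron (limma adjusted p = 0.00509) and by 1.08 without calcium at 2 d (adjusted p = 0.0140). Its boron difference at 4 d was 0.29 (adjusted p = 0.9996).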
